A study of Mus musculus with 30 samples.

Results

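The 8 genes described here encode the enzymes and adaptors that act first when a T cell receptor is engaged. They are the kinases Lck, Fyn, Zap70 and Prkcq, the adaptors Lat and Lcp2, the phospholipase Plcg1 and the phosphatase Ptpn22. They were chosen by name, with earlier results of these data known, among the 55401 genes of the deposited count tables. All 8 were found, by 1 identifier each. RNA was sequenced from wild-type mice bearing tumours grown from 4T1-GFP, a mammary carcinoma line from mouse labelled with green fluorescent protein, and all 30 libraries are labelled as tumour. CD8+ T cells and CD4+ T cells were taken with magnetic beads and 4T1 cells were sorted. The mice had received C269, an antibody against extracellular NAMPT (nicotinamide phosphoribosyltransferase, which outside cells acts as a cytokine), at 2.5 mg/kg, or a control IgG1 (CTRL), 2 times a week for 1 month. This gave 6 groups of 5 libraries: CD8 C269 and CD8 CTRL, CD4 C269 and CD4 CTRL, and 4T1 C269 and 4T1 CTRL.

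The labels do not say whether libraries of a group came from separate animals, so the p-values below measure only the spread between these libraries. Counts assigned to genes ran from 2005579 to 3268974 in CD8 C269, from 2599226 to 3908523 in CD8 CTRL, and they were 3431250 to 4495219 in CD4 and 2347983 to 5176494 in sorted 4T1 cells. Libraries are called by the number at the head of their column. Libraries 27 and 29 were the shallowest of CD8 C269, library 14 (CD4 CTRL) was low for most T cell genes, and libraries 9 and 10 stood apart from the rest of 4T1 C269. The T cell fractions followed their labels. The summed level of Cd8a and Cd8b1 was 682 to 1196 CPM (counts scaled to a library total of 1000000) in CD8 C269 and 775 to 1184 CPM in CD8 CTRL, and the summed level of Cd4 and Cd40lg was 162 to 274 CPM in CD4 C269 and 87.0 to 261 CPM in CD4 CTRL. Cd8a and Cd8b1 were also found in the CD4 fraction, at a summed 40.1 to 80.8 CPM in C269 and 21.9 to 42.6 CPM in CTRL. Cd4 and Cd40lg summed to 6.71 to 27.9 CPM in CD8 C269 and 3.40 to 14.3 CPM in CD8 CTRL. All 10 T cell markers were also detected in the sorted 4T1 cells, at a summed 127 to 637 CPM in C269 and 60.7 to 431 CPM in CTRL, against 1581 to 5826 CPM in the T cell groups. The 5 epithelial and tumour markers (Krt8, Krt18, Krt7, Epcam and Cldn4) summed to 322 to 2744 CPM in 4T1 C269 and 209 to 549 CPM in 4T1 CTRL, and these ranges overlapped those of CD4 C269 (264 to 647 CPM) and CD4 CTRL (207 to 304 CPM). The sorted 4T1 cells also held 5 neutrophil markers at a summed 364 to 11660.0 CPM in C269 and 3727 to 13020.0 CPM in CTRL, so levels under the 4T1 label are those of a mixed fraction.

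When a receptor binds its peptide, Lck, carried by the CD4 and CD8 co-receptors, and its relative Fyn phosphorylate the CD3 and zeta chains, and the kinase Zap70 docks there. Zap70 phosphorylates the membrane adaptor Lat and the cytosolic adaptor Lcp2, which together hold Plcg1. Plcg1 splits a membrane lipid into inositol trisphosphate, which releases calcium for the NFAT factors, and diacylglycerol, which recruits Prkcq (protein kinase C theta) and the Ras activator Rasgrp1. Prkcq leads to NF-kB. Ptpn22 removes phosphate from Lck and Zap70 and so dampens the signal. Lck, Zap70, Lat and Prkcq are typical of T cells, whereas Lcp2 is also used by myeloid cells, and Fyn and Plcg1 are expressed in many tissues.

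The promoter windows of Prkcq, Lck, Zap70 and Lat are shown because these 4 members had the largest differences between sorted 4T1 cells and CD4, and Prkcq also the largest difference between C269 and CTRL in CD8. Each runs 5′ to 3′ in the direction of the gene, from 250 bases before to 50 bases after a RefSeq start site (GRCm38.p6). Capitals mark matches, on either strand, to GGAAG (the core bound by ETS factors), TGTGGT (RUNX), CAGCTG or CACCTG (E boxes) or GGGGCGGGG (the GC box of SP1).
Prkcq, chr2:11172132-11172431, plus strand: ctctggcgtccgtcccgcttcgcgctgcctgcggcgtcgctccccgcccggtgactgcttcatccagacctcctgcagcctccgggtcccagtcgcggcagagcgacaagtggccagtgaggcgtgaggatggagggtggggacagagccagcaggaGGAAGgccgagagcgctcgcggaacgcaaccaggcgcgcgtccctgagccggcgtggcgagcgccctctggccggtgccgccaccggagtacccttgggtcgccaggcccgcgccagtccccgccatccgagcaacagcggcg
Lck, upstream start, chr4:129573592-129573891, minus strand: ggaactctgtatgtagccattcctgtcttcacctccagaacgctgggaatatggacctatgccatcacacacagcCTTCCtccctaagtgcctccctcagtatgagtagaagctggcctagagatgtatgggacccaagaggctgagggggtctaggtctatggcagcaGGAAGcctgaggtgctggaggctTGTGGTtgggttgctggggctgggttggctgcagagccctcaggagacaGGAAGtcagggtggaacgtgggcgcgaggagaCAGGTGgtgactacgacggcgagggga
Lck, downstream start, chr4:129558323-129558622, minus strand: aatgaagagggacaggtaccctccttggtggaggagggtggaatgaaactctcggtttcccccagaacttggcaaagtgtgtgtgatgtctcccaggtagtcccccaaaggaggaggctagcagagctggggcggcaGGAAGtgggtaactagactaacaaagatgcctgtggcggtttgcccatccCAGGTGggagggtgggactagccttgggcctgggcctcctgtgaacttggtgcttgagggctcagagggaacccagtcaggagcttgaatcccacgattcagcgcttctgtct
Zap70, first of 3 starts, chr1:36761548-36761847, plus strand: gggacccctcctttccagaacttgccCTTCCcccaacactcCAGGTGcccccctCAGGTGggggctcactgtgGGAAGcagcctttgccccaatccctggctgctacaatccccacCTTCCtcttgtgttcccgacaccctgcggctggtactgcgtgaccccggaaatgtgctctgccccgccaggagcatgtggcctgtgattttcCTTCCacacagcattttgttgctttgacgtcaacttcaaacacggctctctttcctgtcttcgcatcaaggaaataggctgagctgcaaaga
Lat, chr7:126369519-126369818, minus strand: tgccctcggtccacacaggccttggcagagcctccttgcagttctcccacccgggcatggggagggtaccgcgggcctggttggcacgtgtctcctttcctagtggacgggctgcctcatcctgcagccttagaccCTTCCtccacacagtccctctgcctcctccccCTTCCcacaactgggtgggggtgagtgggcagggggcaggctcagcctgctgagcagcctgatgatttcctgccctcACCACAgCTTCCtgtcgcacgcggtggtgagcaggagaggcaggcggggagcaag
The Prkcq window held 73.0% G and C and a single match, to GGAAG. The upstream Lck window held 3 matches to GGAAG, 1 to TGTGGT and 1 to CACCTG, and the Lat window held 3 to GGAAG and 1 to TGTGGT. Over the 12 windows of the 8 members, 9 held GGAAG, 4 TGTGGT, 5 CACCTG, 1 CAGCTG and none GGGGCGGGG, and 6 of the 8 members had at least 1 GGAAG. Of all 32851 windows of this length, 71.4% held GGAAG, 16.8% TGTGGT, 20.2% CACCTG, 16.3% CAGCTG and 11.4% GGGGCGGGG. The Fyn window held no match to any of the 5, and that of Plcg1 only 1, to CACCTG. These matches describe the letters of the windows only.

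Per kilobase of exon, Lck was the most abundant member in all 4 T cell groups and Prkcq the least abundant in all 6 groups. In mean CPM, Fyn was above Lck in CD8 C269 (635 and 567), CD4 C269 (330 and 293) and CD4 CTRL (334 and 305). The order of Lck and Fyn there depends on the division by exon length. In CD8 CTRL, Lck was above Fyn in mean CPM too (595 and 526). In CD8 CTRL, Lck averaged 203 ± 26.1 CPM per kilobase (SD, n = 5), Fyn 121 ± 15.4, Lat 110.2 ± 13.7, Ptpn22 59.4 ± 5.92, Zap70 52.8 ± 6.998, Plcg1 24.4 ± 2.66, Lcp2 24.05 ± 2.56 and Prkcq 10.2 ± 0.407. Within that order Fyn and Lat, Ptpn22 and Zap70, and Plcg1 and Lcp2 were neighbours closer than the larger of their SDs. In CD4 CTRL the order was Lck, Fyn, Lat and Zap70 (104, 76.6, 68.8 and 30.4 CPM per kilobase), then Lcp2, Ptpn22 and Plcg1 between 21.2 and 23.6, and Prkcq at 7.01 ± 2.33. In 4T1 CTRL the order changed: Fyn led with 24.96 ± 9.48 CPM per kilobase, Lcp2 had 12.3 ± 7.58, and Zap70 and Lat stood near the bottom with 1.46 ± 1.76 and 2.21 ± 3.07.

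**Figure D1:**
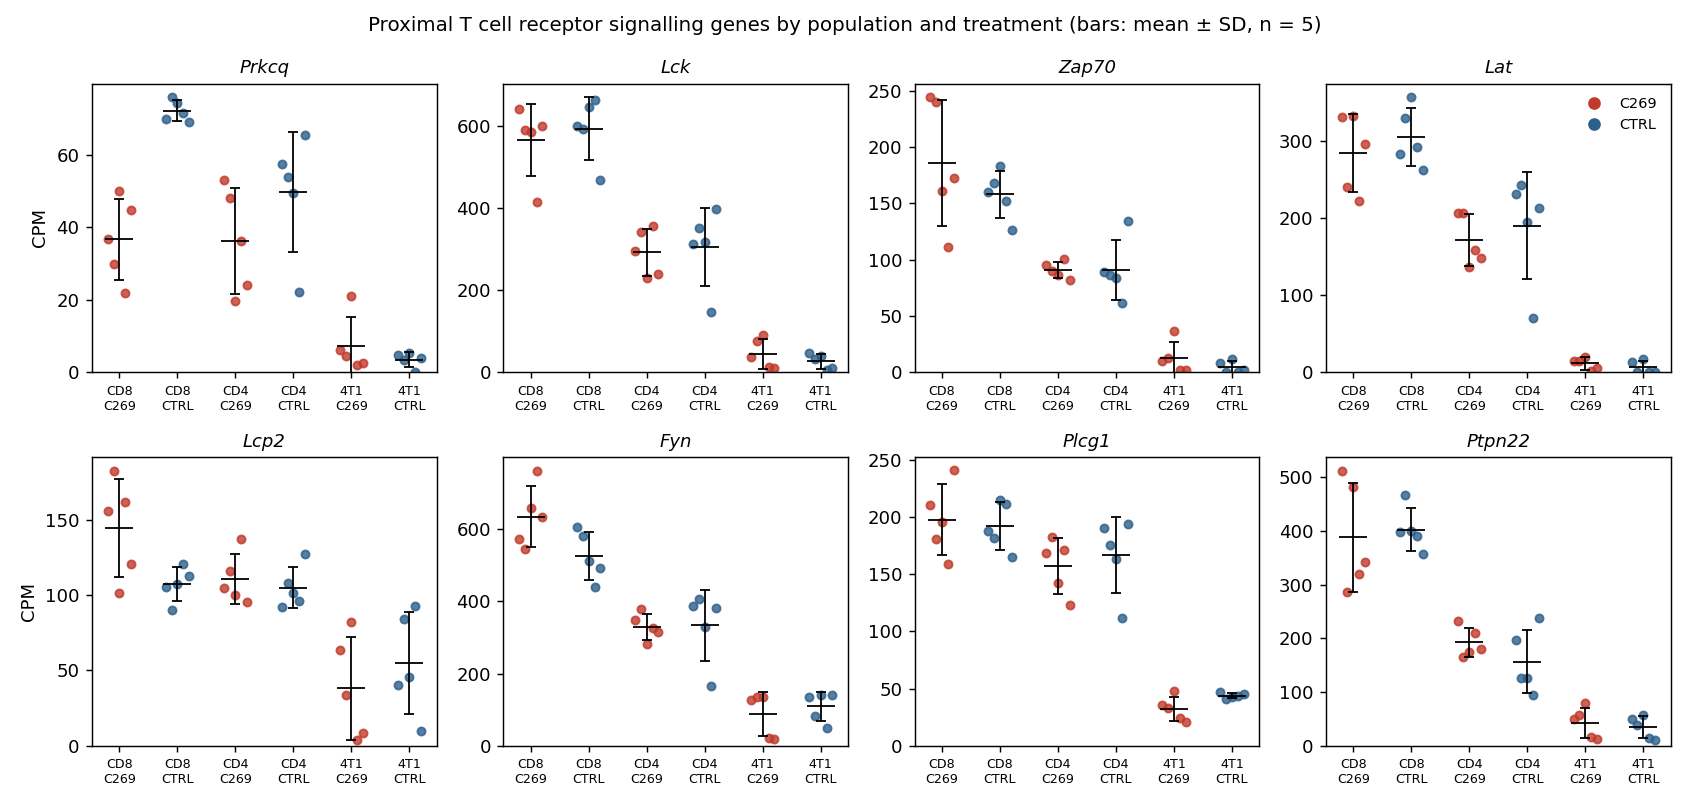
Level of each member in CPM (vertical axes, linear, each from 0) in the 6 groups, with 1 point per library and bars at the mean and SD (n = 5). The Prkcq points of CD8 C269 lie between 21.7 and 49.9 CPM, below all 5 of CD8 CTRL, while the C269 and CTRL points of the other 7 members overlap in both T cell fractions.

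The only member whose C269 and CTRL libraries did not overlap in a T cell fraction was Prkcq, in CD8. Prkcq (ENSMUSG00000026778, chromosome 2, 11172108 to 11301222 on GRCm38, plus strand) had 36.9, 29.9, 49.9, 21.7 and 44.7 CPM in CD8 C269 libraries 26 to 30, against 69.8, 75.8, 74.3, 71.6 and 69.0 CPM in CD8 CTRL libraries 21 to 25. Every C269 library lay below every CTRL library, and the C269 libraries were spread more widely. The mean was 36.6 ± 11.3 CPM in CD8 C269 and 72.1 ± 2.89 CPM in CD8 CTRL (SD, n = 5 each). In bulk samples such as these, fewer cells of a type and less RNA per cell cannot be told apart. The same separation downwards was found in 0.64% of the 10943 genes tested in CD8, and separation upwards, which no member had, in 0.603%.

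The fitted difference of Prkcq in CD8 was −0.96 on the log2 scale (C269 over CTRL, SE 0.23), with an adjusted p of 0.739 in edgeR's quasi-likelihood test over all genes, so it did not pass the threshold of 0.05. By p it ranked 10th of 10943 genes and 1st of the 5373 with a negative difference. This test called 1 gene in CD8 (0.00914%), which was not a member: Cd24a, a surface glycoprotein, higher in C269, named here after its values were seen. DESeq2 on the same counts gave −0.96 with an adjusted p of 0.0486 and called 18 genes (0.128%), of which Prkcq was the only lower one. The authors' deposited table, which gives CTRL over C269, lists Prkcq at 0.88 with an adjusted p of 0.0489, the only 1 of its 13 genes called in CD8 that was higher in CTRL. Without the filter on low counts edgeR placed Prkcq past the threshold (−1.0, adjusted p = 0.0471). That fit called 162 of 24171 genes, 127 higher and 35 lower. Without libraries 27 and 29 the Prkcq difference was −0.72 (adjusted p = 0.970), and leaving out each library in turn gave −1.12 to −0.84. All these fits and the deposited table use the same CD8 libraries, so they are not independent of each other. That Prkcq was lower in CD8 C269 was known when the members were chosen.

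As a ratio to Cd3e, the CD3 chain used here as a measure of T cell receptor RNA, Prkcq showed the same separation. The ratio of counts was 0.0751, 0.0759, 0.116, 0.0665 and 0.109 in CD8 C269 and 0.186, 0.186, 0.169, 0.157 and 0.190 in CD8 CTRL, again with every C269 library below every CTRL library. Such a ratio separated the groups downwards in 0.649% of tested genes. With Cd3e as the library scale, the difference was −1.0 (SE 0.22, adjusted p = 0.713), and with the sum of Cd3e, Cd3d, Cd3g and Cd247 it was −1.02. On the Cd3e scale edgeR called no gene in CD8 (0%), and 701 had an unadjusted p under 0.05. Cd3e itself averaged 410.3 ± 59.2 CPM in CD8 C269 and 409 ± 39.8 CPM in CD8 CTRL (log2 difference 0.01, SE 0.14).

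**Figure D2:**
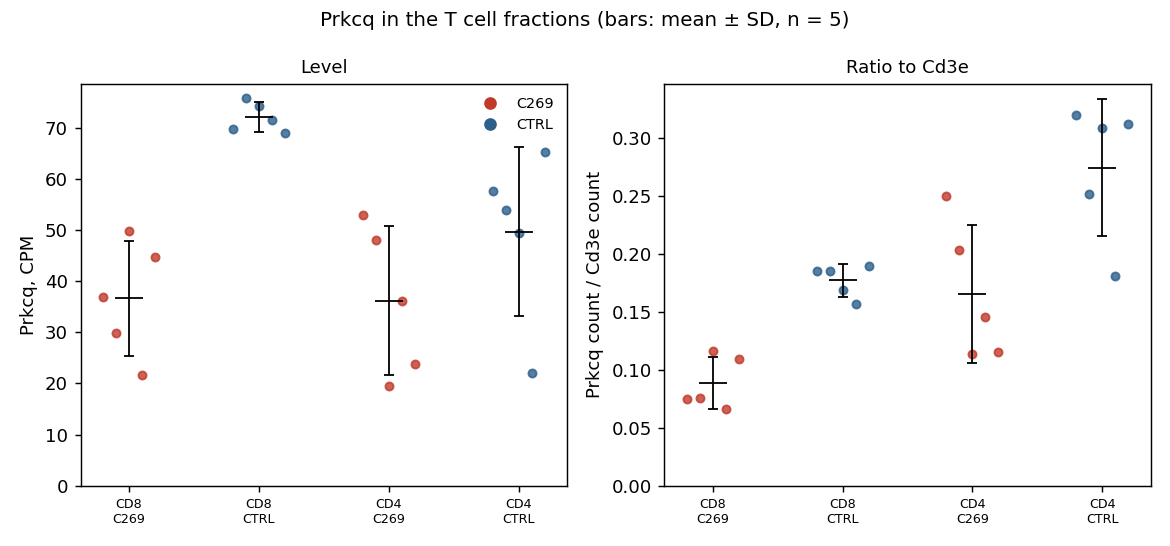
Prkcq in the T cell fractions as CPM (left) and as the ratio of its counts to those of Cd3e (right), both from 0, with 1 point per library and bars at the mean and SD (n = 5). In CD8 the 5 C269 libraries lie below the 5 CTRL libraries on both scales, and in CD4 the groups overlap on both.

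Other cell types were measured in the same CD8 libraries. The summed level of the 10 T cell markers was 4446 to 5571 CPM in CD8 C269 and 4715 to 5826 CPM in CD8 CTRL, and the ranges overlapped. The 6 macrophage markers summed to 171 to 558 CPM in CD8 C269 and 255 to 731 CPM in CD8 CTRL, the 5 neutrophil markers to 335 to 1895 and 252 to 486 CPM, the 6 B cell markers to 14.8 to 116 and 21.5 to 50.1 CPM, and 3 detected plasma cell markers (Mzb1 was at 0) to 178 to 598 and 92.2 to 214 CPM. The 5 fibroblast markers summed to 118 to 4263 CPM in CD8 C269 and 203 to 583 CPM in CD8 CTRL, the 4 red cell markers to 123 to 2934 and 231 to 562 CPM, and the 5 epithelial and tumour markers to 20.2 to 353 and 20.7 to 73.3 CPM. The highest fibroblast and red cell sums were those of library 29, which had the lowest Prkcq level, and the highest epithelial sum was that of library 27, which had the next lowest. The share of ribosomal RNA in all counts was 6.43, 7.95, 2.48, 7.24 and 4.70% in CD8 C269 libraries 26 to 30 and 3.18 to 5.08% in CD8 CTRL. Libraries 27 and 29, the 2 highest in ribosomal RNA, also had the fewest detected genes, 12208 and 13400, against 15775 to 17169 in CD8 CTRL. The part of these cells and of RNA quality in the Prkcq difference was not tested.

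Of the other 7 members in CD8, none passed the test, and 4 of the 8 had a positive and 4 a negative difference, with a median of 0.0029 against 0.0097 over all genes. The adaptor Lcp2 came next by p. It had 156, 182, 102, 162 and 120.4 CPM in CD8 C269 and 105, 90.0, 107, 121 and 113 CPM in CD8 CTRL, so that 3 C269 libraries lay above all CTRL libraries and 2 within their range (log2 difference 0.44, SE 0.18, adjusted p = 0.741). Fyn had 573, 546, 658, 762 and 634 CPM in CD8 C269 and 605, 582, 512, 441 and 491 CPM in CD8 CTRL, with the 3 highest values all in C269 (0.28, SE 0.15, adjusted p = 0.772).

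The receptor-proximal kinases Lck and Zap70 showed no difference beyond their spread in CD8. Lck had 642, 589.9, 587, 415 and 601 CPM in CD8 C269 and 600.0, 594, 646, 664 and 469 CPM in CD8 CTRL (log2 difference −0.06, SE 0.14), with 1 low library in each group. Zap70 had 244, 240.3, 161, 112 and 173 CPM in CD8 C269 against 159.9, 168, 183, 152 and 127 CPM in CD8 CTRL (0.23, SE 0.20), and its C269 libraries ran both above and below all CTRL libraries. Lat averaged 284 ± 51.3 CPM in CD8 C269 and 305 ± 38.0 CPM in CD8 CTRL (−0.09, SE 0.16). Plcg1 averaged 197 ± 31.0 and 192 ± 20.9 CPM (0.05, SE 0.16). The phosphatase Ptpn22 averaged 388 ± 102 and 403 ± 40.1 CPM (−0.04, SE 0.18), with 2 C269 libraries above and 3 below all CTRL libraries.

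In CD4, Prkcq was again the member with the smallest p, and here its groups overlapped. It had 52.9, 48.1, 19.6, 36.2 and 23.9 CPM in CD4 C269 libraries 16 to 20 and 57.5, 53.9, 49.4, 22.01 and 65.4 CPM in CD4 CTRL libraries 11 to 15, where the low value is that of library 14. The log2 difference was −0.48 (SE 0.31, adjusted p = 0.904) and −0.68 to −0.33 with 1 library left out. No member and no other gene of the 12393 tested passed edgeR's test in CD4 (0%), where 697 genes had an unadjusted p under 0.05 and DESeq2 called 17. None of the members had separated groups, which happened downwards in 0.331% and upwards in 0.379% of genes. The remaining members lay between −0.18 (Lat) and 0.27 (Ptpn22).

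Set against Cd3e, 7 of the 8 members had a negative C269 difference in CD4, and so had most genes. Cd3e averaged 216 ± 29.5 CPM in CD4 C269 and 177 ± 38.0 CPM in CD4 CTRL (0.26, SE 0.17, adjusted p = 0.906), and on its scale the median over all genes was −0.31 (−0.11 without library 14, and −0.073 with the sum of the 4 CD3 chains as the scale). The median of the members was −0.30. Prkcq had −0.73 (SE 0.28, adjusted p = 0.459), with ratios of 0.113 to 0.250 in CD4 C269 and 0.181 to 0.320 in CD4 CTRL, and −0.48 (adjusted p = 0.999) with the sum as the scale. No gene passed in CD4 on the Cd3e scale (0%; 1301 with an unadjusted p under 0.05).

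**Figure D3:**
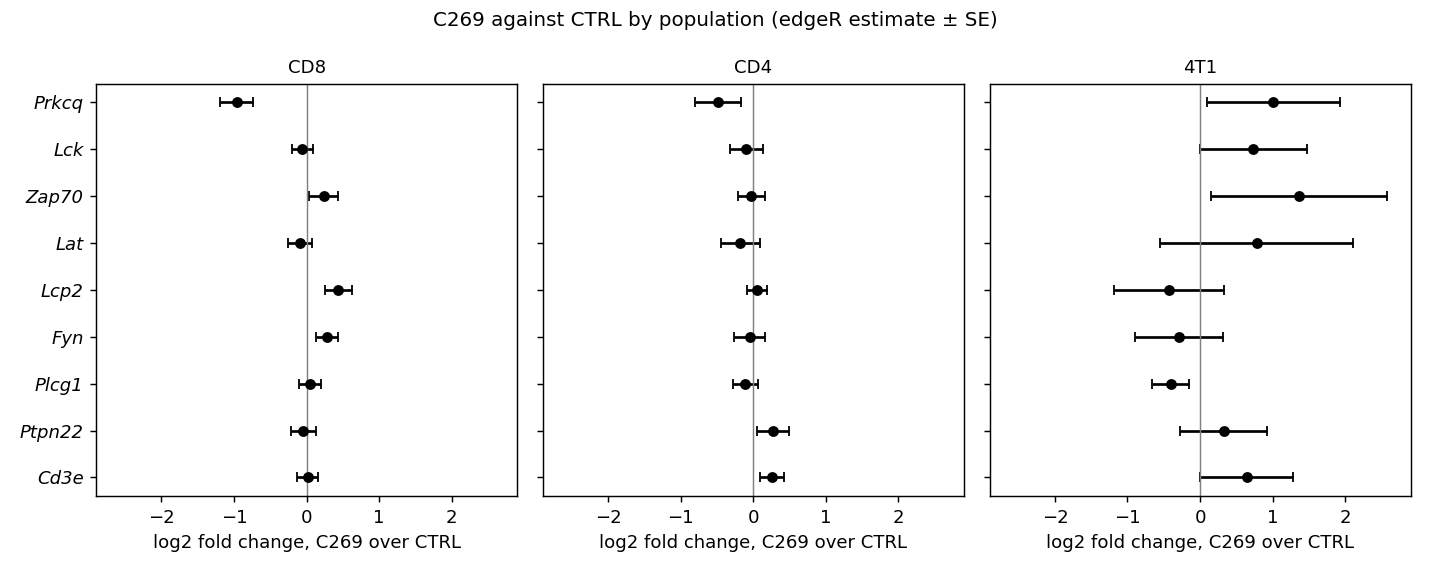
Log2 fold change of C269 over CTRL (horizontal axis, points, with bars of 1 SE) for the 8 members and Cd3e in CD8, CD4 and 4T1, from the edgeR fit of each population. Prkcq in CD8 lies farthest from 0 in units of its SE (−0.96, SE 0.23), and the 4T1 estimates have the widest bars.

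The difference between the C269 effects in CD8 and CD4 was tested directly in a fit of all 30 libraries. For Prkcq it was −0.50 (CD8 minus CD4, SE 0.70), and −0.04 without libraries 14, 27 and 29. No member passed, nor did any of the 14731 genes (0%), of which 566 had an unadjusted p under 0.05 and DESeq2 called 19. The 2 effects on Prkcq were therefore not shown to differ.

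Between the CTRL groups, the estimates of all 8 members were above 0 for CD8 over CD4 when scaled by library size. Of all tested genes 49.8% were above 0 on that scale. As a ratio to Cd3e, 7 of the 8 members were below 0, where only 2.63% of all genes were above 0. In the fit of the 15 CTRL libraries only Ptpn22 passed, with 398, 468, 399, 390.1 and 358 CPM in CD8 CTRL against 198, 126, 126, 94.8 and 239 CPM in CD4 CTRL (log2 difference 1.44, SE 0.38, adjusted p = 0.0168). Its groups did not overlap, and without library 14 the difference was 1.29 (adjusted p = 0.0504). In this fit 12.6% of 13201 genes passed. Lck had 1.03 (SE 0.43, adjusted p = 0.137), Zap70 0.87, Lat 0.74, Fyn 0.73, Prkcq 0.61, Plcg1 0.27 and Lcp2 0.11. In a fit of the 10 T cell CTRL libraries alone 5 of the 8 members passed, namely Ptpn22, Lck (adjusted p = 0.00241), Zap70 (0.00287), Fyn (0.0197) and Lat (0.0420), where 23.3% of genes passed. All CD8 CTRL libraries lay above all CD4 CTRL libraries for Prkcq, Lck, Lat, Fyn and Ptpn22, and 5.61% of tested genes were separated in this way. The 10 T cell markers were separated too, at a summed 4715 to 5826 CPM in CD8 CTRL and 1581 to 4022 CPM in CD4 CTRL. The part of T cell content in these differences was not tested.

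Cd3e also differed between the fractions, with 409 ± 39.8 CPM in CD8 CTRL and 177 ± 38.0 CPM in CD4 CTRL (1.28, SE 0.37, adjusted p = 0.0278). As a ratio to Cd3e, in a comparison added after the values were seen, the members had a median of −0.50 between CD8 and CD4 CTRL, where the median of all genes was −1.33 and 84.7% of genes passed. Lcp2 had −1.21 (SE 0.20, adjusted p = 3.72e-05) and Plcg1 −1.01 (SE 0.17, adjusted p = 4.82e-05), and these 2 also passed with the sum of 4 CD3 chains as the scale. Prkcq (−0.63), Fyn (−0.51) and Lat (−0.49) passed with Cd3e and not with the sum, and with 1 library left out Lat lost its call without library 11, 12, 13, 21, 24 or 25 and Fyn without library 24 (−0.42, adjusted p = 0.0517). Ptpn22, with 0.17 (SE 0.20, adjusted p = 0.418), was the only member above 0 on this scale.

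**Figure D4:**
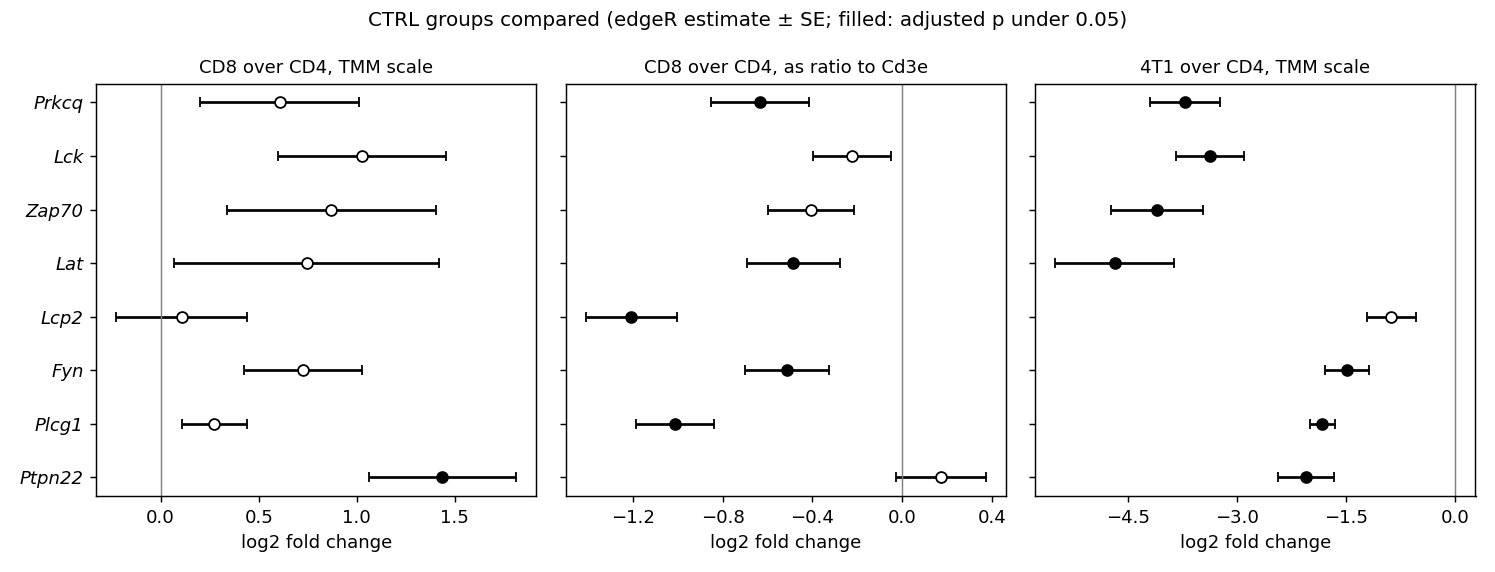
Log2 fold changes between CTRL groups (horizontal axes differ) with bars of 1 SE for the 8 members: CD8 over CD4 by library size (left), CD8 over CD4 as a ratio to Cd3e (middle) and 4T1 over CD4 by library size (right). Filled points passed the adjusted p of 0.05: Ptpn22 on the left, 5 members in the middle and 7 on the right.

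In the sorted 4T1 cells all 8 members had estimates below CD4, and 7 of them passed the test (12.7% of genes did). Lat was lowest against CD4 (log2 difference −4.69, SE 0.81, adjusted p = 0.0012), followed by Zap70 (−4.10), Prkcq (−3.72), Lck (−3.38), Ptpn22 (−2.06), Plcg1 (−1.83) and Fyn (−1.50). Lcp2, at −0.88 (SE 0.34, adjusted p = 0.0959), did not pass, though it did without library 4 (−1.13, adjusted p = 0.0397) or library 5 (−0.63, adjusted p = 0.0499). The kinases and adaptors that do the corresponding work outside T cells went the other way. The differences of all 9 genes of that list were positive for 4T1 CTRL over CD4 CTRL and 5 passed, among them Syk, the relative of Zap70 (2.02, SE 0.36, adjusted p = 0.00151), Lat2 (1.55, adjusted p = 0.00592) and the Src-family kinase Fgr (1.54, adjusted p = 0.0088). In the same libraries the 5 neutrophil markers summed to 3727 to 13020.0 CPM in 4T1 CTRL and 546 to 828 CPM in CD4 CTRL, and the part of these cells in the differences was not tested.

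The levels of Lat and Lcp2 ranged widely among the 4T1 libraries of both groups. Lat had 14.9, 14.96, 20.1, 0.898 and 4.64 CPM in 4T1 C269 libraries 6 to 10, and 13.04, 0, 17.5, 0 and 0 CPM in 4T1 CTRL libraries 1 to 5. Zap70 was at 0 in libraries 2 and 4, as Lat was, where 3 counts, the limit that a count of 0 allows, are 1.28 and 0.753 CPM. Lcp2 had 63.4, 33.4, 82.0, 3.82 and 8.50 CPM in 4T1 C269 and 40.6, 83.9, 45.9, 92.8 and 10.04 CPM in 4T1 CTRL, with its highest values in libraries 4 and 2, those without Lat or Zap70 counts. In these 2 libraries the 6 macrophage markers summed to 3760.0 and 1733 CPM and the 10 T cell markers to 60.7 and 105 CPM, while in the other 3 CTRL libraries they summed to 553 to 703 and 404 to 431 CPM. The sum of 431 CPM was that of library 5, although it had no counts of Cd3d, Cd247 or Lat and Cd3e at 13.2 CPM. Its 5 fibroblast markers summed to 35330.0 CPM, against 2232 to 7005 CPM in the other CTRL libraries. Library 5 also had the lowest Lcp2 level of 4T1 CTRL, 10.04 CPM, so low Lat did not always go with high Lcp2. The part of these cells in the Lcp2 levels was not tested.

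Plcg1 had 35.9, 33.0, 47.7, 24.5 and 20.9 CPM in 4T1 C269 and 46.6, 40.9, 42.3, 43.4 and 45.4 CPM in 4T1 CTRL, where it was the steadiest member. The 2 lowest C269 values were those of libraries 10 and 9, where each of the other 7 members was also lower than in the other 3 C269 libraries. In libraries 9 and 10 the T cell markers summed to 127 and 141 CPM, against 469 to 637 CPM in the other 3. The epithelial and tumour markers summed to 2668 and 2744 CPM, against 322 to 1194 CPM. The part of these cells in the levels was not tested. No member passed between C269 and CTRL in 4T1, and Plcg1 had the smallest p (−0.40, SE 0.26, adjusted p = 0.551). Zap70 had 1.37 (SE 1.21), Prkcq 1.01 (SE 0.92), Lat 0.78 (SE 1.33) and Lck 0.73 (SE 0.74). With 1 library left out these ranged from 0.55 to 2.15 for Zap70, from 0.21 (without library 8) to 1.25 for Prkcq, from 0.46 to 1.68 for Lat and from 0.41 to 1.05 for Lck. None of the 12875 genes passed in edgeR (0%), with 1557 at an unadjusted p under 0.05, while DESeq2 called 998 and the authors' deposited table calls 818, with no member among the calls of either.

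**Figure D5:**
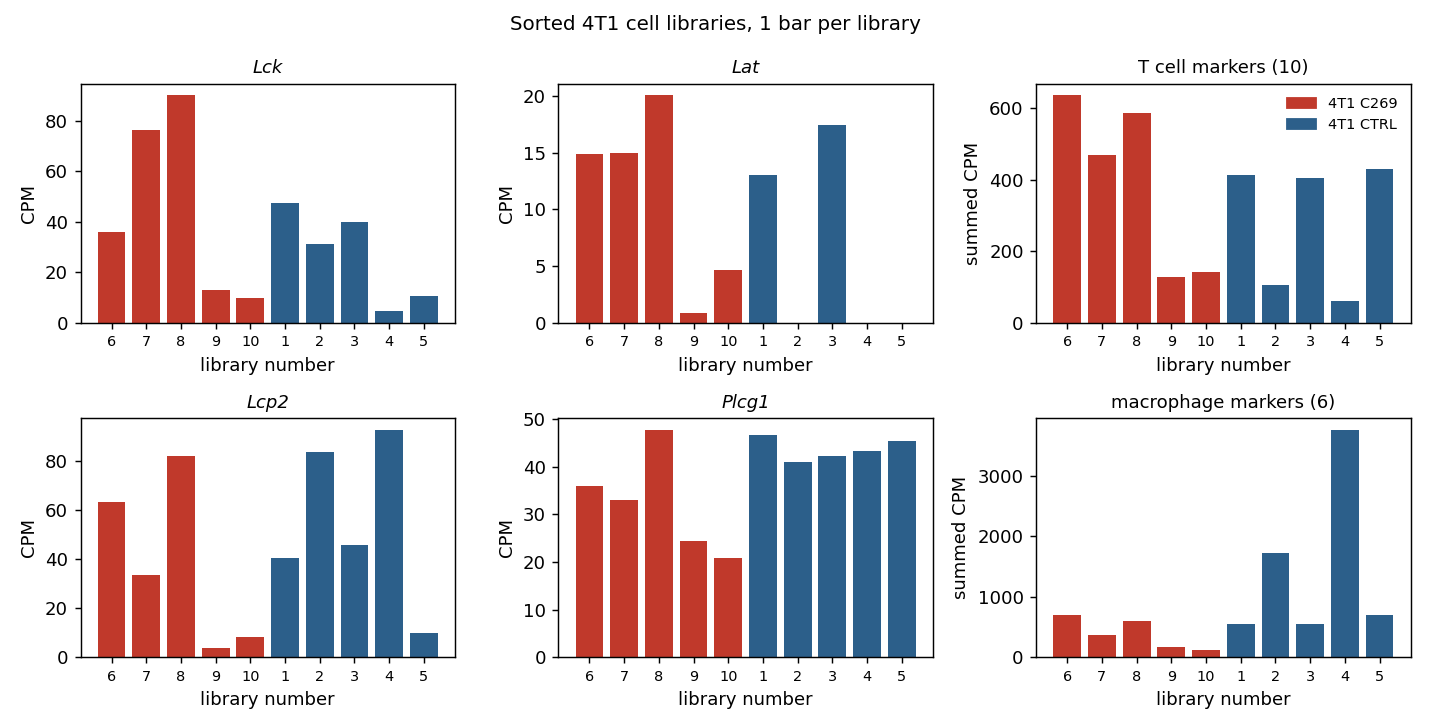
Levels in the 10 sorted 4T1 cell libraries, 1 bar per library (C269 libraries 6 to 10, then CTRL libraries 1 to 5), as CPM for Lck, Lat, Lcp2 and Plcg1 and as summed CPM for the T cell and macrophage markers. Lat has no counts in libraries 2, 4 and 5, and Lcp2 and the macrophage markers are highest in library 4.

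The rest of the pathway was read from lists of related genes. In CD8, none of the 20 other proximal kinases, adaptors and scaffolds passed between C269 and CTRL (7 positive, 13 negative). The smallest p was that of Sh2d2a, an adaptor that binds Lck, with 760.1 ± 140.2 CPM in CD8 C269 and 531 ± 51.2 CPM in CD8 CTRL (0.53, SE 0.15, adjusted p = 0.739). None of 18 negative regulators passed (6 positive, 12 negative, median −0.14). Dgka, which removes the diacylglycerol that Prkcq needs, led them with 86.2 ± 33.9 CPM in CD8 C269 and 138 ± 19.2 CPM in CD8 CTRL (−0.67, SE 0.24, adjusted p = 0.739). Of the 13 genes of the NF-kB branch downstream of Prkcq, 11 had a negative and 2 a positive difference, with a median of −0.18 against 0.0097 over all genes. Of all genes tested in CD8, 50.9% had a positive difference. None of the 13 passed or had an unadjusted p under 0.05 (Ikbkb had the smallest p, −0.35, SE 0.18, adjusted p = 0.752). The 13 genes of the calcium and NFAT branch split into 7 positive and 6 negative (Orai1, the calcium channel of the plasma membrane, 0.43, SE 0.23) and the 13 of the Ras and MAP kinase branch into 8 and 5 (Mapk3 0.54, SE 0.23), with no call. Among the 7 other protein kinase C genes Prkci had the smallest p, at 37.1 ± 21.9 CPM in CD8 C269 and 14.9 ± 3.36 CPM in CD8 CTRL (1.30, SE 0.37, adjusted p = 0.739).

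In CD4 no gene of these lists passed either. The proximal partners split into 11 positive and 9 negative, with Cd8b1, the beta chain of the CD8 co-receptor, smallest by p (0.61, SE 0.25, adjusted p = 0.882). The part of CD8 T cells within the CD4 fraction in the Cd8b1 difference was not tested. The NF-kB branch split into 8 and 5 (Nfkb1 0.48, SE 0.18, adjusted p = 0.865). The calcium and NFAT branch also split into 8 and 5 (Itpr1, a receptor for inositol trisphosphate, 0.42, SE 0.17) and the negative regulators into 11 and 7 (Cd5, an inhibitory surface receptor, 0.34, SE 0.18). In 4T1, 15 of 18 tested proximal partners and all 4 CD3 chains had positive C269 differences, with medians of 0.70 and 0.65 against 0.04 over all genes, none past the threshold (Nck2 0.68, SE 0.30, adjusted p = 0.403, and Cd3e 0.64, SE 0.64, adjusted p = 0.715).

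Between CD8 and CD4 CTRL, 7 of the 20 proximal partners passed, 4 higher and 3 lower in CD8, where 12.6% of all genes passed. Among the 7 were Cd8a, Cd8b1 and Cd4, the co-receptors that define the fractions, so their differences follow from how the cells were taken. Beside these co-receptors, the 7 included Themis, which sets the signal threshold in thymocytes, higher in CD8 (1.67, SE 0.43, adjusted p = 0.0151). Lower in CD8 were the adaptors Trat1, which sits in the receptor complex (−3.18, SE 0.52, adjusted p = 0.00056), and Nck2 (−0.99, SE 0.22, adjusted p = 0.00551). Prkch (protein kinase C eta), the relative of Prkcq in T cells, averaged 179 ± 28.5 CPM in CD8 CTRL and 92.6 ± 22.6 CPM in CD4 CTRL and passed (1.02, SE 0.23, adjusted p = 0.00631), while Prkci was lower in CD8 (−0.93, SE 0.22, adjusted p = 0.0101). The MAP kinase phosphatases went in opposite directions, Dusp2 higher (2.30, SE 0.57, adjusted p = 0.0121) and Dusp6 lower in CD8 (−1.23, SE 0.29, adjusted p = 0.00876). No gene of the NF-kB or the calcium and NFAT branch passed. The 5 epithelial and tumour markers summed to 20.7 to 73.3 CPM in CD8 CTRL and 207 to 304 CPM in CD4 CTRL. The 5 fibroblast markers summed to 203 to 583 and 446 to 4008 CPM. The NK cell markers went the other way, with 146 to 229 and 3.75 to 15.6 CPM. The part of these cells in the differences was not tested.

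Within groups, the members' levels moved together across the 20 T cell libraries to different degrees. After each group's mean was subtracted from the log2 CPM, Pearson's r between members ran from −0.08 to 0.89 over the 28 pairs, with a median of 0.59, and from −0.32 to 0.83 with a median of 0.35 without library 14. The libraries share depth and T cell content, so these values are descriptions. Prkcq varied with Lat (0.86), Plcg1 (0.84) and Lck (0.82) and not with Lcp2 (−0.06). Among 6975 genes, those most like Prkcq were Sun2 (0.93), Il16 (0.91) and Ikzf1 (0.91), and most like Lck were Rac2 (0.95), Cd3e (0.91) and Gmfg (0.90). Lat was most like Skap1 (0.97), Vps37b (0.94) and Bcl11b (0.94), Zap70 most like Jak3 (0.85), Tox (0.84) and Xlr4b (0.83), and Fyn most like Gm8369 (0.94), Btg1 (0.93) and Ctse (0.92). Plcg1 was most like Lck (0.89), Tmem71 (0.89) and Sh3kbp1 (0.88), Ptpn22 most like Polr1d (0.86), 4932438A13Rik (0.84) and Nxf1 (0.82), and Lcp2 most like Gpr65 (0.90), Maf (0.88) and Samsn1 (0.83). Without library 14, Sun2, Rac2, Skap1 and Gpr65 still ranked first for Prkcq, Lck, Lat and Lcp2, whereas Gmfg ranked 29th for Lck (0.75), Tox 15th and Xlr4b 12th for Zap70, Ctse 11th for Fyn and Vps37b 9th for Lat, and the other named genes ranked between 2nd and 7th.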

How the data were processed

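Per the labels' protocols, a Lexogen SPLIT kit gave the RNA. The submitters' processing notes list FastQC, featureCounts and DESeq2. They name mm9, but 99.6% of gene starts equal those of GENCODE M21 (GRCm38). The aligner is not given in the sources used here.

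The authors deposited 3 tables of raw counts, 1 per population. Library columns carry numbers, and each was placed in its group because each deposited condition column equals the sum of 1 set of 5 libraries. The authors' log2 fold changes and p-values, per the file headers CTRL over C269, were used only where named. Ribosomal RNA (7 features, 3.05% of counts) was left out.

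CPM scale counts by each library's total in genes. C269 and CTRL, and the CTRL groups, were compared with edgeR 4.0.16 in R 4.3.3 (filterByExpr, TMM, quasi-likelihood test, Benjamini-Hochberg over all tested genes, threshold 0.05), also with the Cd3e count as library scale. All 8 members passed filterByExpr in each fit. DESeq2 1.42.0, other filters, scalings and left-out libraries were alternatives. The scripts were tested on simulated data. For the Cd3e scale the simulated Cd3e counts were drawn without noise, so the noise of Cd3e itself was not covered.

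The members and lists were chosen with earlier results of these data known. Named genes were all members and Cd3e, and from each list up to 3 passing genes per direction by p, or the 1 with the smallest p. For the added CD8 to CD4 comparison relative to Cd3e only members are named. Likeness used log2 CPM with a prior count of 2 and genes of at least 20 CPM. The limit of 3 counts covers counting error only, whereas SDs and SEs include the spread between libraries. Promoter windows came from RefSeq and all 8 members had at least 1.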

Additional observations from a re-analysis of the deposited data

Results flagged for a closer look

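Of the 48 sets of 5 libraries formed by the 8 members and 6 groups, 3 held a library farther from the others than Dixon's test allows at 95%, and chance flags about 1 in 20 such sets. Prkcq was at 21.06 CPM in library 8 (4T1 C269), where the other 4 libraries of the group had 2.02 to 6.09 CPM. Lck was at 415.5 CPM in library 29 (CD8 C269), below the 587 to 642 CPM of the other 4. Lat was at 70.52 CPM in library 14 (CD4 CTRL), below the 195 to 243 CPM of the other 4.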

How the results depend on the processing

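Across 1412 fits of members and list genes under alternatives, 1347 kept their direction and side of the threshold, 11 lost and 13 gained a call and 41 turned sign, of which none passed after the turn. The cause was not tested. Genes past the threshold numbered 18 with DESeq2, 162 without the filter and 0 in the fit of all 30 libraries in CD8 (0 without libraries 27 and 29, 0 to 1 with 1 library left out), 17 with DESeq2 and 83 without the filter in CD4 (0 to 10), and 998 with DESeq2 and 606 in the fit of all 30 libraries in 4T1. The difference of effects had 19 with DESeq2 (0 to 1 with 1 library left out). CD8 against CD4 had 1032 in the fit of all 30 and 2823 in that of the 10 T cell libraries (1133 to 1482 with 1 left out), and 4T1 against CD4 868 in the fit of all 30 (998 to 1938). Relative to Cd3e, 0 to 1 genes passed in CD8 and 0 to 3 in CD4 with 1 library left out. Prkcq in CD8 gained its call with DESeq2 (−0.96) and without the filter (−1.0).

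Without libraries 27 and 29 in CD8, Lck had 0.038, Lat 0.069, Ptpn22 0.14 and Yes1 0.020, and relative to Cd3e Ptpn22 had 0.013. Without libraries 9 and 10 in 4T1, Lcp2 had 0.23 and Fyn 0.32. Ptpn22 had 0.015 for the difference of effects without libraries 14, 27 and 29. With the sum of 4 CD3 chains as the scale, Plcg1 in CD8 had −0.0022, Fyn in CD4 0.019 and Lck between CD8 and CD4 0.069. With 1 library left out, the range in CD8 was −0.13 to 0.017 for Lck, −0.039 to 0.10 for Plcg1 and −0.17 to 0.049 for Ptpn22, and relative to Cd3e −0.039 to 0.082 for Plcg1 and −0.15 to 0.0046 for Ptpn22. In CD4 it was −0.28 to 0.0084 for Lck, −0.16 to 0.15 for Zap70, −0.012 to 0.13 for Lcp2 and −0.23 to 0.040 for Fyn, and relative to Cd3e −0.076 to 0.15 for Ptpn22. For the difference of effects it was −0.094 to 0.20 for Lck and −0.049 to 0.28 for Lat.

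No paired analysis was possible because the library columns carry library numbers, whereas the titles mark replicates by letters, and nothing ties the 2. Depth limits the low members most: in 4T1 libraries, levels near the limit of 3 counts were those of Prkcq, Zap70 and Lat. Alternatives that left out named libraries together in the T cell fractions, the leave-1-out fits and the RLE scaling of 4T1 against CD4, the leave-1-out fits of the difference of effects, and the Cd3e scale between CD8 and CD4 were chosen after seeing the data.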
